A study of Oryza sativa Indica Group with 16 samples.

Results

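The salt response of the sensitive bulk was read from 4 of the 16 arrays of the series, chosen by their sample titles. They are 2 arrays of the bulk grown without salt and 2 of the bulk after 24 h in 150 mM NaCl. The sensitive bulk is a pool of salt-sensitive recombinant inbred lines of indica rice, made from the salt-tolerant variety CSR27 and the salt-sensitive variety MI48. All plants were seedlings 10 days after germination, and 8 µg of total RNA per sample went onto an Affymetrix rice array. Each array thus averages over the pooled lines, and the labels do not name the tissue within the seedling. The tolerant bulk, pooled from tolerant lines of the same cross and sampled with and without the same salt treatment (2 arrays each), serves as the comparison and shares the fit. The series design calls the 2 arrays of a group biological replications.

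Salt stress reaches a plant first as a water deficit and then as an accumulation of sodium. The hormone abscisic acid carries much of the first signal. It binds PYL receptors, which then block type 2C protein phosphatases (PP2C) and release SnRK2 kinases (named SAPK in rice). The kinases activate bZIP factors that switch on dehydrins and other late embryogenesis abundant (LEA) proteins, which protect membranes and proteins in drying tissue. Transporters of the HKT, HAK and SOS type, the last controlled by calcium sensors of the CBL and CIPK families, set how much sodium and potassium a cell holds.

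Signals are given in array units after the 8 bulk arrays were scaled to a common median of 18.4. Changes are log2 differences of scaled signal plus a pseudocount of 4, with the standard error (SE) of a limma fit, so that changes of dim probe sets are understated. Of 32996 probe sets tested, 2147 passed a Benjamini-Hochberg adjusted p of 0.05, which is 6.51% of those tested. Of these, 573 rose (1.74%) and 1574 fell (4.77%). The rises had a median of 1.17 and the falls a median of -0.86 on the log2 scale. Of the 2802 tested probe sets with a named gene, from which the lists below are drawn, 114 rose and 219 fell (199 and 137 after quantile normalization), so more falls than rises in a list follow the pattern of all named genes. In no called probe set did the salt and control arrays overlap; over all tested probe sets, both salt arrays lay above both control arrays in 15.2% and below them in 33.3%.

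The split between rises and falls depended on the scaling and on the control arrays. The median change over all tested probe sets was -0.15, so the changes below are best read against that value. Quantile normalization moved the median to -0.01 and gave 2136 calls (6.48%), 1092 rises (3.31%) and 1044 falls (3.17%). Of the 573 rises 563 were called again there, and of the 1574 falls 1002. The 2 control arrays of the sensitive bulk stood apart from each other: 3762 probe sets differed between them by over 1 on the log2 scale, against 2431 to 2921 between the arrays of the other bulk groups. Without control replicate 2 there were 7235 calls (21.9% of those tested, with 1090 rises at 3.3% and 6145 falls at 18.6%) with a median change of -0.26. Without control replicate 1 there were 2222 calls (6.73%, with 1003 rises at 3.04% and 1219 falls at 3.69%) with a median change of -0.06. Leaving out salt replicate 1 or 2 gave 546 and 360 calls. Rises were called in all 4 of these fits for 149 probe sets and falls for 146.

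**Figure D1:**
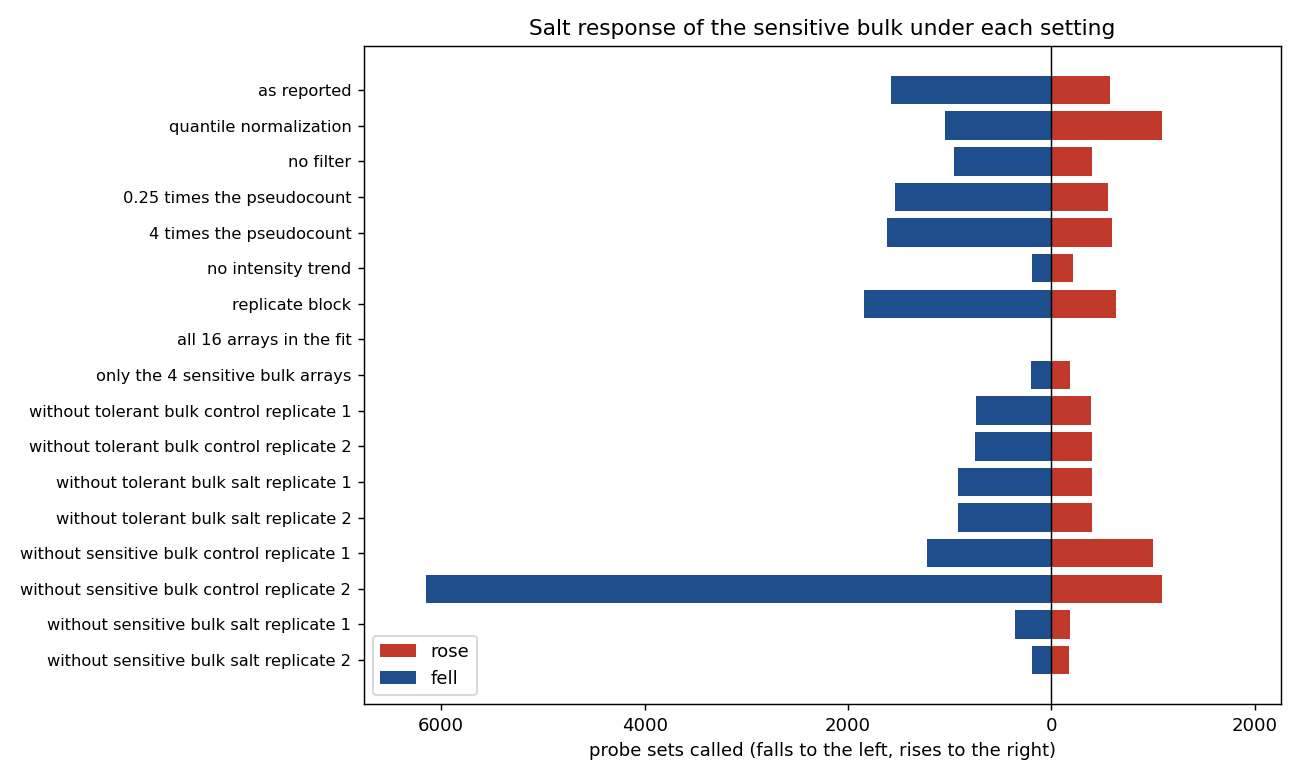
Probe sets called in the salt response of the sensitive bulk under each setting drawn, which leave out the fits that join quantile normalization with a left-out array, with rises in red to the right of 0 and falls in blue to the left (counts on the horizontal axis). Among those drawn, falls range from 0 with all 16 arrays in the fit to 6145 without control replicate 2, and rises from 0 to 1092.

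The largest rises among named genes were dehydrins and other abscisic acid-linked genes. RAB16B, a dehydrin, had a signal of 18.5 on both control arrays and of 843 and 793 on the salt arrays, a change of 5.19 ± 0.20 (SE, n = 2 and 2, adjusted p = 4.3e-07). That is a 36.6-fold rise. Its neighbour RAB21 went from 135 and 110 to 4097 and 4136, a change of 5.03 ± 0.13 (adjusted p = 3.3e-08). RAB16D rose from 70.2 and 37.7 to 438 and 469, by 3.04 ± 0.25. RAB16C rose from 48.4 and 33.7 to 314 and 261, by 2.71 ± 0.21. These 4 dehydrin genes lie within a run of 6 genes on chromosome 11, in the gene order of the RefSeq annotation.

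Beyond this cluster, LEA3-1, a group 3 LEA protein, went from 104 and 43.9 to 1228 and 1126, a rise of 4.04 ± 0.30 (adjusted p = 5.2e-05). The dehydrin Dhn1 rose by 1.47, from 395 and 284 to 980 and 896. Of the 9 tested probe sets for dehydrins and LEA proteins 7 rose and 0 fell, with a median of 3.04, and the same count rose after leaving out each of the 4 sensitive arrays in turn. The 2 that were not called were EM, with a change of 0.39, and rab25, with 0.77; both salt arrays lay above both controls in each. In the tolerant bulk, where 5.41% of all tested probe sets were called, 6 of the 9 rose, with a median of 2.89.

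**Figure D2:**
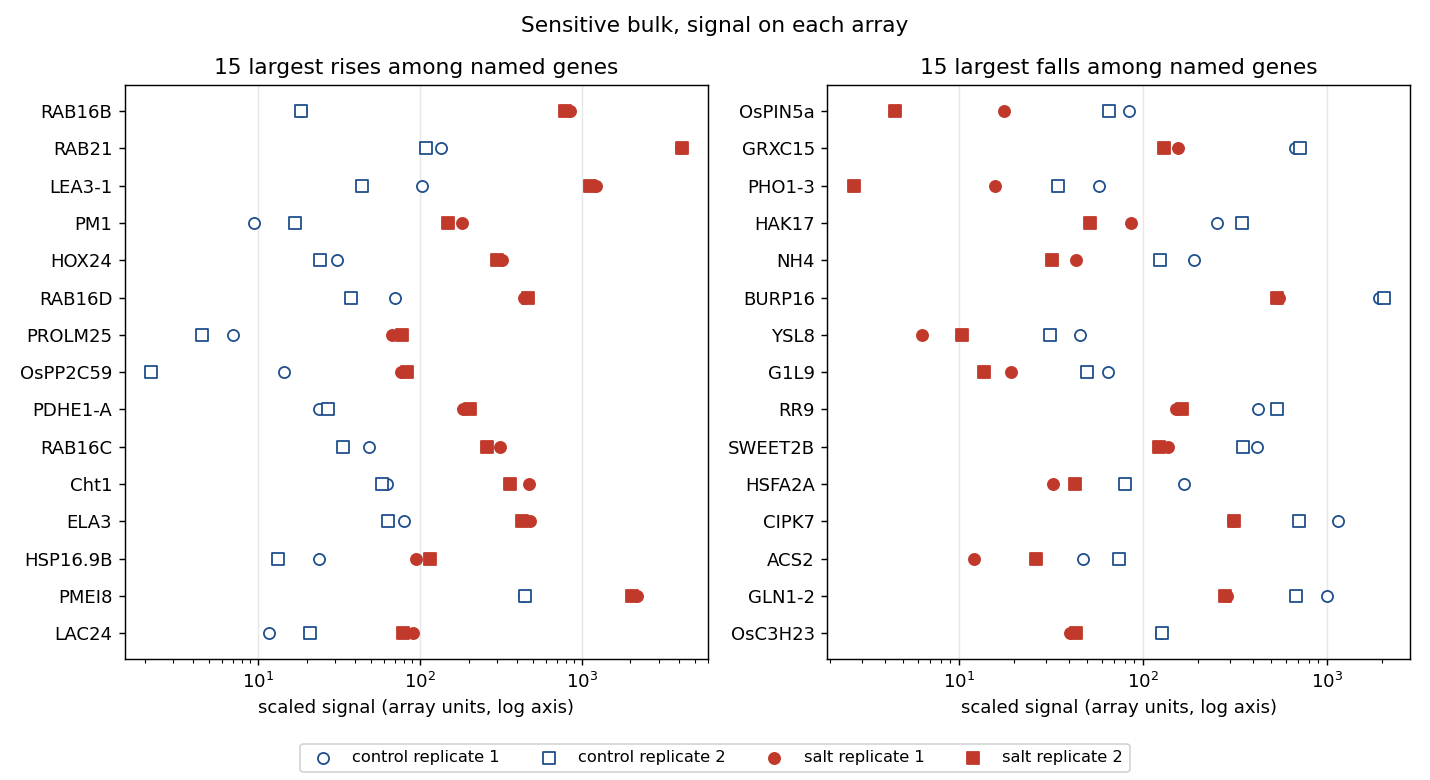
Scaled signal (array units, log axis) on each of the 4 arrays of the sensitive bulk for the 15 named genes with the largest rises and the 15 with the largest falls. Open symbols are control arrays and red symbols salt arrays, with circles for replicate 1 and squares for replicate 2. The salt arrays lie beyond both control arrays in all 30 genes.

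Some genes that respond to abscisic acid or act in its pathway rose beside the dehydrins. Other genes on the lists for its metabolism and signalling families fell or were not called. PM1, an AWPM-19 membrane protein gene, went from 9.4 and 17.0 to 183 and 150, a rise of 3.33 ± 0.27 (adjusted p = 8.4e-05). A second PM1 probe set, at 5.6 and 8.4 in control and 22.5 and 16 under salt, changed by 1.08 and was not called (adjusted p = 0.36). ABA8OX2, which breaks abscisic acid down, rose from 110 and 54.5 to 280 and 264, by 1.76. The zeaxanthin epoxidase gene ZEP, which acts in synthesis, had a change of -0.30 (adjusted p = 0.39). ABA8OX1, a second breakdown enzyme, had one of -0.03 (adjusted p = 0.96).

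Among 77 tested probe sets for receptors, phosphatases and SnRK2 kinases, 6 rose and 6 fell, with a median of -0.23. The phosphatases were listed by family name, whether or not each acts in abscisic acid signalling, so these counts describe the families and not the pathway. All 6 rises were PP2C phosphatases. PP2C30 rose from 128 and 107 to 456 and 416, by 1.86 ± 0.17 (adjusted p = 0.00017). ABIL1 rose by 1.33, OsPP2C08 by 1.58, PP2C51 by 1.55, OsPP2C09 by 1.16 and OsPP2C59 by 2.97. The last had dim and unlike controls, at 14.6 and 2.2, against 76.6 and 83.9 under salt.

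The list also had 6 falls. The receptor gene PYL11 fell by 0.84, from 376 and 254 to 166 and 175. The phosphatase genes OsPP2C15 (-1.17), OsPP2C14 (-1.14) and OsPP2C01 (-0.63) fell, and OsPP2C71 fell on both of its probe sets (-0.86 and -0.75). No kinase was called: SAPK6 changed by 0.51 (adjusted p = 0.12), SAPK10 by 0.40 (0.27), SAPK1 by 0.45 (0.19), SAPK4 by 0.12 (0.63) and SAPK5 by -0.49 (0.078). Quantile normalization gave 8 rises and 4 falls in this list. Without control replicate 2 there were 28 falls, without control replicate 1 there were 3, and without salt replicate 1 or 2 there were 0, with 3 and 2 rises.

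The transcription factor lists hold only genes with a symbol, and factor genes without one were not counted. The largest rise among the listed members was that of HOX24. This HD-Zip I factor gene went from 30.9 and 24.2 to 320 and 302, a rise of 3.33 ± 0.24 (adjusted p = 4.6e-05). Hox22, its close relative, rose by 1.58 ± 0.13, from 273 and 253 to 808 and 776. Roc6, of the HD-Zip IV class, fell by 0.78, and 2 of 34 HD-Zip probe sets rose in all. Of 22 bZIP probe sets 2 rose and 1 fell. They were ABF2, an abscisic acid-response element binding factor, with a rise of 1.2 from 475 and 385 to 1030 and 943, TRAB1 with one of 0.95, and BZIP52 with a fall of 1.13.

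The 2 probe sets of EREBP1, an ethylene-responsive element binding factor, disagreed. One rose by 2.06, from 16.3 and 13.1 to 85.4 and 64.0, and the other, brighter one fell by 0.67, from 945 and 749 to 543 and 511. No EREBP1 direction can be given. None of 9 NAC and 3 WRKY probe sets was called, and 1 of 13 MYB probe sets fell, for MYBS2 (-1.01), whose brighter probe set had a change of -0.05. In the zinc finger and stress-associated list of 16, SAP8 rose by 0.57 and SAP16 fell by 0.77 on 1 of its 2 probe sets. These transcription factor lists gave 8 calls on the HD-Zip, bZIP and EREBP1 probe sets, and of them HOX24, Hox22 and ABF2 remained called without each of the 4 sensitive arrays.

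Small heat shock proteins, chaperones that hold unfolding proteins, had more rises than falls. Of 23 tested probe sets 8 rose and 3 fell, with a median of 0.36. HSP18.6 went from 248 and 155 to 759 and 724, a rise of 1.90 ± 0.20 (adjusted p = 0.00043). HSP16.9B rose from 24.0 and 13.4 to 94.3 and 116, by 2.30 ± 0.26. HSP16.9A rose by 1.99 and HSP18.0 by 1.48, the latter from 280 and 242 to 746 and 719. The 3 falls, named here after their values were seen, were HSP18.8 (-1.45), HSP24.1 (-1.01) and HSP16.0 (-0.89). Quantile normalization gave 10 rises and 2 falls, and leaving out salt replicate 1 or 2 gave 6 and 4 rises.

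The heat shock factors, which control these chaperones, had 2 rises and 2 falls among 28 probe sets, beside 333 calls among the 2802 named ones. HSFA6B rose from 54.2 and 67.4 to 251 and 239, by 1.95 ± 0.19 (adjusted p = 0.00026), and HSF05 rose by 1.16. HSFA2A (-1.54) and HSFA2D (-0.89) fell, each on a single probe set of several, and the other 24 of 28 probe sets were not called. HSFA2A was not called without control replicate 1 (adjusted p = 0.067). Of 11 large chaperone probe sets 2 rose, HSP81-3 by 0.95 and CLPB1 by 0.89. The HSP81-3 rise was on a single probe set of several, from 41.5 and 53.8 to 94.3 and 95.3, and the others were not called.

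The listed potassium and sodium transport genes changed little. Those tested were HAK transporters, potassium channels and HKT1.5, with no other HKT gene and no gene of the SOS type. Sodium transport as a whole was thus not surveyed. Of 31 tested probe sets 1 rose and 1 fell, and the median change was 0.01. HAK17, a potassium transporter, fell from 254 and 347 to 86.6 and 51.8, a change of -2.08 ± 0.31 (adjusted p = 0.0035). The call was lost without salt replicate 2 (adjusted p = 0.053), and a second HAK17 probe set changed by -0.36 (adjusted p = 0.4). HAK10 rose by 0.61, from 391.9 and 487 to 689 and 651, and was not called without control replicate 1 or either salt array (adjusted p = 0.064, 0.2 and 0.19). HKT1.5, the xylem sodium transporter gene, stood at 94.7 and 72.0 in control and 85.7 and 89.7 under salt. Its change of 0.08 was not called (adjusted p = 0.88). The potassium channel AKT1 had a change of -0.04, and the 2 HAK5 probe sets had changes of -0.17 and 0.36.

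Of the 84 probe sets for calcium sensors and the kinases they bind, 10 fell and 1 rose, with a median of -0.17 against -0.15 over all tested. CIPK7 fell from 1157 and 710 to 311 and 313, a change of -1.53 ± 0.20 (adjusted p = 0.0017); its second, brighter probe set had a change of -0.19 and was not called. Of the 4 probe sets of CIPK10 3 fell (-1.44, -1.13 and -1.1). CBL4, the calcium sensor of the SOS sodium-export pathway, fell from 150 and 152 to 52.6 and 86.4, by 1.12 (adjusted p = 0.031), but not without control replicate 1 (0.062) or salt replicate 1 (0.21). CIPK21 (-1.1), the kinase gene CPK1 (-0.85), the calmodulin-like gene CML10 (-0.68), CIPK25 (-0.63) and 1 of the 2 probe sets of CIPK23 (-0.62) fell too.

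CIPK5 ran against the others. It rose from 353 and 317 to 756 and 731, by 1.14 ± 0.13 (adjusted p = 0.00086), and the call held without each sensitive array. After quantile normalization the list had 4 rises and 6 falls. Without control replicate 2 it had 26 falls, and without salt replicate 1 or 2 it had 4 and 3. Among calcium and proton pumps 1 of 12 probe sets rose, ACA5 by 0.95.

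Aquaporins, the membrane channels for water, had 2 rises and 2 falls among 29 probe sets and a median of 0.14. TIP2-1 of the vacuolar membrane went from 573 and 417 to 1294 and 1195, a rise of 1.34 ± 0.16 (adjusted p = 0.001). Its second probe set, at 43.0 and 18.7 in control and 71.1 and 58.4 under salt, changed by 1.07 and was not called (adjusted p = 0.097). OsPIP1;3 of the plasma membrane rose from 1568 and 927 to 2870 and 2643, by 1.19, and was not called without salt replicate 1 or 2 (adjusted p = 0.095 and 0.089). The silicon channel Lsi6 fell by 0.59. Of the 3 probe sets of PIP2-1 1 fell (-1.1), from 81.4 and 80.3 to 38.2 and 33.2. The 2 brighter ones changed by 0.31 and 0.38 and were not called (adjusted p = 0.24 and 0.15), so no direction can be given for that gene.

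Enzymes for compatible solutes were lifted in part: 3 of 24 probe sets rose and 1 fell. P5CS2, the first enzyme of proline synthesis, rose by 1.2 ± 0.23 from 33.7 and 34.0 to 87.9 and 77.9, whereas its second, dim probe set had a change of 0.03 and P5CS1 had a change of 0.43 and was not called (adjusted p = 0.21). INO1, which makes inositol phosphate, rose from 947 and 718 to 1479 and 1495, by 0.85. SAM1, an S-adenosylmethionine synthetase, rose from 2755 and 3019 to 4828 and 5533, by 0.84. The trehalose phosphatase TPP1 fell by 1.43 ± 0.21, from 243 and 316 to 119 and 84.4. Quantile normalization gave 6 rises and 1 fall; without salt replicate 1 the list kept 1 rise and 1 fall, and without salt replicate 2 it had 0 of either.

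The lectin salT, a mannose-binding protein first known as a salt-induced rice protein, rose on both of its probe sets. One went from 982 and 845 to 2049 and 1785, by 1.07, and the other from 2215 and 2158 to 4087 and 4142, by 0.91. The germin-like proteins GER8 and GER7 fell by 0.99 and 0.98. These were the calls among 13 probe sets of that list.

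Defence proteins had more rises than falls, and Cht1 was among the 15 largest rises of named genes. Of 18 probe sets for pathogenesis-related proteins and protease inhibitors 6 rose and 1 fell, with a median of 0.78. Cht1, a chitinase, went from 62.8 and 58.2 to 472 and 361, a rise of 2.69 ± 0.19 (adjusted p = 4.3e-05). The chitinase gene chia4a rose from 141 and 142 to 368 and 380, by 1.38. PBZ1, a probenazole-inducible protein of the PR10 family, rose from 378 and 324 to 793 and 790, by 1.17. The Bowman-Birk protease inhibitor RBBI3.3 rose by 1.24. The one fall, named after its value was seen, was Cht11 by 0.98. In the tolerant bulk the same list had 3 rises and 4 falls, and without salt replicate 1 or 2 of the sensitive bulk it had 3 rises in each case.

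Metallothioneins and lipid transfer proteins had rises and no falls. Of 15 metallothionein probe sets, small metal-binding proteins, 3 rose and 0 fell, with a median of 0.50, and both salt arrays lay above both controls in 11. MT4A rose from 584 and 548 to 1171 and 1095, by 1.00 ± 0.14 (adjusted p = 0.0023), MT2C rose by 0.71 and MT-2 by 0.53. The MT2C and MT-2 rises were each on a single probe set of several, the others not being called. Of 7 lipid transfer protein probe sets 3 rose and 0 fell, with a median of 0.60. LTP-2 rose from 107 and 77.6 to 289 and 317, by 1.69 ± 0.19. LTP110-A rose by 0.60 and LTP2-B, on a single probe set of several, by 0.46. Without salt replicate 1 or 2, 1 metallothionein and 1 lipid transfer probe set were called.

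Of 57 probe sets for glutaredoxins, thioredoxins and glutathione transferases 7 fell and 1 rose. GRXC15, a CC-type glutaredoxin, fell from 674 and 720 to 156 and 130, a change of -2.26 ± 0.16 (adjusted p = 4.6e-05), in every fit without 1 sensitive array. GRXC1 (-1.09), 1 of the 3 probe sets of GRXS10 (-0.83) and the thioredoxin OsTrxy (-0.74) fell too. The one rise, named after its value was seen, was GRXC7 by 1.11. Of 28 probe sets for enzymes that remove reactive oxygen 1 rose and 2 fell: the copper/zinc superoxide dismutase SODCC.2 rose by 0.86, the manganese form RMSOD1 fell by 0.67, and the monodehydroascorbate reductase MDHAR2 fell by 0.84. Without salt replicate 1 or 2 the glutaredoxin list had 1 fall and the reactive oxygen list 0 calls.

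The lists for secondary metabolism and the cell wall are read beside the 333 calls among all 2802 tested probe sets with a named gene. Of 19 probe sets listed for diterpenoid phytoalexin synthesis 1 rose and 1 fell. CYP99A2, a cytochrome P450, rose by 1.98 from 13.9 and 24.1 to 72.5 and 97.4. CPS1, which is also on the gibberellin list, fell by 0.79. CYP99A2 was not called without control replicate 1 (adjusted p = 0.064) or salt replicate 1 or 2 (0.08 and 0.17). Both called PAL probe sets, for phenylalanine ammonia-lyase, rose, by 0.92 and 0.51, and the lignin enzyme gene CAD3 fell by 0.73. Of 71 cell wall probe sets 7 fell and 1 rose. XTH8, a xyloglucan transferase, fell from 1749 and 1420 to 746 and 679, a change of -1.14 ± 0.15 (adjusted p = 0.0018). The expansins EXP10 and EXPB11 fell by 0.94 and 0.78, and the cellulose synthase gene CESA5 fell by 0.74. The one rise, named after its value was seen, was CESA3 by 0.54, whose brighter probe set had a change of -0.10. Without salt replicate 1 or 2 the cell wall list had 1 fall and without control replicate 2 it had 24.

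**Figure D3:**
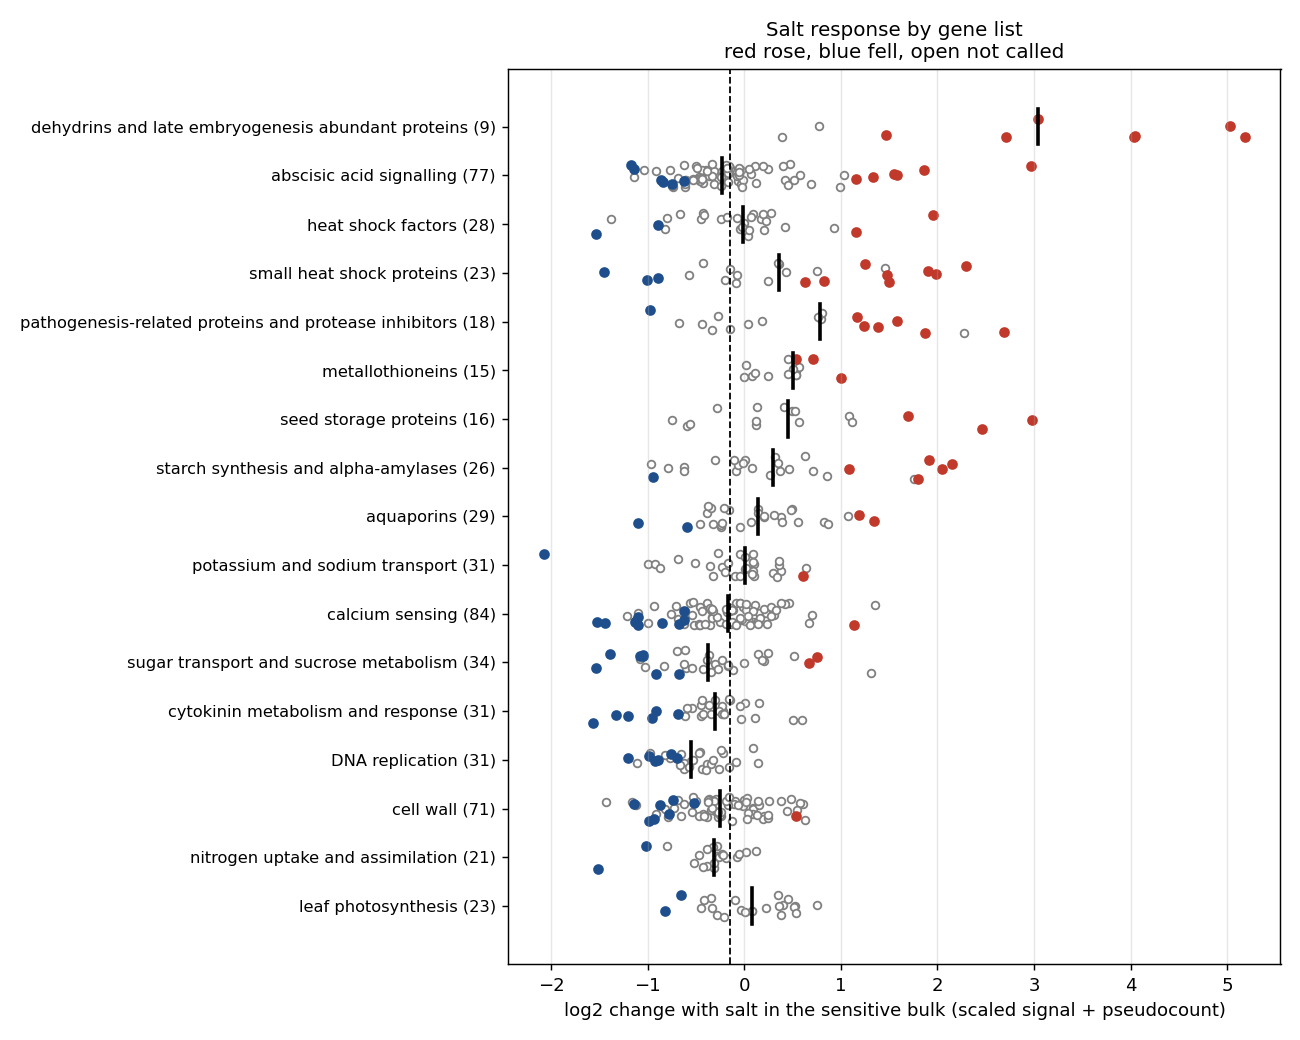
Log2 change with salt in the sensitive bulk for every tested probe set of 17 gene lists (horizontal axis, scaled signal plus pseudocount; number of probe sets in brackets). Red points rose, blue points fell and open points were not called; the black bar is the list's median and the dashed line the median of all tested probe sets, -0.15. The dehydrin list has the highest median, 3.04, and the DNA replication list the lowest of those drawn, -0.55.

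Of 31 DNA replication probe sets 6 fell and 0 rose, with a median of -0.55 against -0.15 over all tested, and both salt arrays lay below both controls in 22. MCM2, a subunit of the replication helicase, fell from 354 and 276 to 166 and 146, by 0.99 ± 0.17 (adjusted p = 0.0085), and MCM4 fell as well (-1.2). PCNA, the sliding clamp of DNA polymerase, fell from 802 and 631 to 402 and 364, by 0.89. OsRPA32, which binds single-stranded DNA, fell by 0.70. After quantile normalization 4 of the 31 fell, with a median of -0.37. Without control replicate 2 there were 12 falls, without control replicate 1 there were 4, and without salt replicate 1 or 2 there were 2 and 0.

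Among 54 probe sets for cyclins, cyclin-dependent kinases and mitotic kinesins, 4 fell and 1 rose, a share of falls near that of all named probe sets (219 of 2802). The mitotic cyclin CYCB2 fell by 0.85 and 0.80 on its 2 called probe sets and CYCA2-1 by 0.75, while EL2, a kinase inhibitor, rose by 0.74. Of 6 histone probe sets 2 fell, H2B.10 by 0.76 and the centromeric CenH3 by 0.95. None of these cyclin and histone calls was made without salt replicate 1 or 2. No ribosomal protein probe set of 37 was called, with a median of -0.21.

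Among other hormones, cytokinin genes had 6 falls and 0 rises among 31 probe sets. The type A response regulator RR9 fell from 421 and 537 to 152 and 163, a change of -1.57 ± 0.16 (adjusted p = 0.00046). RR2 fell by 1.33 and RR6 by 0.92. CKX4, which breaks cytokinin down, fell (-1.2), from 292 and 290 to 126 and 124. Quantile normalization gave 5 falls and 1 rise, and leaving out salt replicate 1 or 2 gave 4 and 2 falls.

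Of 63 auxin probe sets 5 fell and 1 rose, a share of falls near that of all named probe sets; quantile normalization gave 3 rises and 3 falls, and leaving out salt replicate 1 or 2 gave 1 and 0 falls with 0 rises. OsPIN5a, an auxin carrier, went from 83.9 and 66.0 to 17.6 and 4.5, a fall of 2.54 ± 0.44 (adjusted p = 0.0089); the call was lost without salt replicate 2 (adjusted p = 0.069). GH3.5, of the auxin and jasmonate conjugating family, fell by 0.89, IAA31 by 0.68 and IAA5 by 0.51. The rise, named after its value was seen, was arf1 by 0.66 on 1 of its 2 probe sets, the other having a change of -0.13. Of 32 jasmonate probe sets 4 fell and 0 rose, among them the repressor JAZ4 by 1.08 ± 0.13, from 1217 and 1228 to 582 and 567, JAZ10 by 0.71 and JAZ7 by 0.56. The other tested probe set of JAZ4 and that of JAZ10 were not called. Quantile normalization gave 1 rise and 2 falls in this list, and without salt replicate 1 or 2 there was 1 fall. JAZ10 was not called in the latter fits (adjusted p = 0.15 and 0.18), nor was JAZ7 (0.21 and 0.25), which was also lost without control replicate 1 (0.11). Of 9 ethylene probe sets 2 fell: ACS2, an ACC synthase, by 1.52, and the receptor gene ETR3 by 0.97. ACS2 was not called under quantile normalization (adjusted p = 0.052) or in any fit without 1 sensitive array (0.051 to 0.24).

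Nutrient genes had calls in the nitrogen, iron and zinc, and phosphate lists, beside 333 among the 2802 named probe sets. GLN1-2, a cytosolic glutamine synthetase, fell from 999 and 678 to 288 and 280, by 1.52 ± 0.18 (adjusted p = 0.00095), and the ammonium transporter AMT1 fell by 1.02. They were the 2 calls among 21 nitrogen probe sets, of which 6 fell in the tolerant bulk. Of 48 iron and zinc probe sets 5 fell and 2 rose. NAAT1 and the nicotianamine synthase NAS1 both act in making the iron chelators of grasses, and they moved apart: NAAT1 fell from 497 and 491 to 239 and 250, by 1.01, and NAS1 rose by 0.74. NAS1 was not called without salt replicate 1 or 2 (adjusted p = 0.18 and 0.14), and in those fits the list had 1 and 2 falls and 0 rises. YSL8, a metal-chelate transporter, fell by 1.78, from 45.9 and 31.2 to 6.3 and 10.4, but not without control replicate 1 (adjusted p = 0.19) or either salt array (0.19 and 0.14). The transcription factor BHLH063 (-1.18) and osysl12 (-1.06), of the same transporter family as YSL8, fell too.

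PHO1-3, of the phosphate exporter family, went from 57.8 and 34.5 to 15.7 and 2.7, a change of -2.08 ± 0.51 (adjusted p = 0.037), which was not called without control replicate 1 (0.16) or salt replicate 2 (0.22). PHR3, a phosphate starvation factor, rose by 1.04. Of 34 sugar probe sets 7 fell and 2 rose. The sugar transporter SWEET2B fell from 421 and 353 to 137 and 123, by 1.54 ± 0.16 (adjusted p = 0.00047), SWEET11 by 1.39 and OsSWEET2a by 1.08. The invertase NIN3 fell by 0.92. The 2 rises, named after their values were seen, were SUS4 by 0.67 and SWEET15 by 0.75. Without control replicate 1 this list had 4 falls and 3 rises, without control replicate 2 it had 17 falls, and without salt replicate 1 or 2 it had 3 and 2 falls.

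Several other single genes were among the 15 largest changes in either direction. PDHE1-A, a pyruvate dehydrogenase subunit gene, rose by 2.76 ± 0.20 from 23.7 and 27.1 to 185 and 206, but its brighter probe set fell by 0.44, from 2090 and 2078 to 1567 and 1503, so no direction can be given for the gene. PMEI8, an inhibitor of pectin methylesterase, rose by 2.24 from 443 and 448 to 2200 and 2054. ELA3, an early nodulin-like protein gene, rose by 2.60, and the laccase LAC24 by 2.16. The BURP domain gene BURP16 fell by 1.85 from 1917 and 2049 to 554 and 536, whereas both called BURP2 probe sets rose, by 1.03 and 0.89. NH4, a relative of the defence regulator NPR1, fell by 1.93 from 189 and 124 to 43.5 and 32.1. G1L9 of the ALOG family fell by 1.59 and the CCCH zinc finger gene OsC3H23 by 1.51.

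Of these 15 rises 13 were called in all 4 fits without 1 sensitive array, and of the 15 falls 8. The rises that were not were OsPP2C59 (adjusted p = 0.1 and 0.14 without salt replicates 1 and 2) and LAC24 (0.061 without control replicate 1, 0.13 without either salt array). The falls that were not were OsPIN5a, PHO1-3, HAK17, YSL8, HSFA2A, ACS2 and G1L9, the last at 0.095 without salt replicate 2. All 15 rises and 14 of the 15 falls were called after quantile normalization, ACS2 being the exception. In the tolerant bulk 14 of the 15 rises and 8 of the 15 falls were called in the same direction. Of all tested probe sets 0.985% rose there and 4.42% fell. The closer comparison is with all calls of the sensitive bulk, of which 36.8% of rises and 43.8% of falls were called in the same direction there.

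Leaf photosynthesis genes gave few calls. Of 23 probe sets 2 fell and 0 rose, with a median of 0.08, and their summed signal was 62440 and 79870 in control and 82310 and 88370 under salt. PSB28, a photosystem II protein gene, fell by 0.82 and CHL1, for a subunit of magnesium chelatase, by 0.66. Neither was called without control replicate 1 (adjusted p = 0.065 and 0.077). In the tolerant bulk 6 of the 23 fell. The 13 root marker probe sets had 1 fall, Lsi6, and a summed signal of 1598 and 1536 in control and 1156 and 1220 under salt. In such bulk RNA a smaller share of a tissue and less RNA per cell cannot be told apart, and the part of the root and leaf levels in the changes above was not tested. Among 42 probe sets for tubulins, actins, ubiquitins and elongation factors, often used as reference genes, 5 fell; among them ACT2 (-1.08) and TUB2 (-1.1).

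Whether the sensitive bulk responded differently from the tolerant bulk was tested as the difference of the 2 salt responses. It was called for 57 of the 32996 probe sets (0.173%), 52 of them higher in the sensitive bulk (0.158%) and 5 lower (0.0152%). Of the 573 rises of the sensitive bulk 211 also rose in the tolerant bulk (36.8%), and of the 1574 falls 689 also fell there (43.8%). In 25 probe sets a rise in the sensitive bulk met a fall in the tolerant bulk, and in 1 the reverse. The 57 calls covered 16 named probe sets of 12 genes.

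Seed and grain-reserve genes were the most prominent of them. PROLM25, a prolamin storage protein, rose in the sensitive bulk from 7.0 and 4.5 to 67.5 and 77.8, by 2.98 ± 0.23, and fell in the tolerant bulk from 546 and 547 to 47.7 and 47.6. The difference was 6.40 ± 0.32 (adjusted p = 9.4e-06). RA14, a seed allergen gene, went from 33.3 and 21.9 to 115 and 81 in the sensitive bulk and from 725 and 724 to 53.0 and 63.3 in the tolerant bulk, a difference of 5.25 (adjusted p = 5.2e-05). On 3 other RA14 probe sets the difference was not called (1.41, 0.46 and 1.82, adjusted p = 0.65, 0.91 and 0.81). GBSS1, the granule-bound starch synthase, went from 233 and 416 to 1319 and 1274 and from 3825 and 4791 to 576 and 586, a difference of 4.92 (adjusted p = 5.2e-05). AMY1.1, an alpha-amylase of germinating grain, rose by 1.80 in the sensitive bulk, from 950 and 745 to 2907 and 2972, while the tolerant bulk stood at 4659 and 5590 in control and 3690 and 3829 under salt.

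For the probe sets called in the difference, the gap between the bulks lay mostly in the control arrays. For 47 of the 52 probe sets with a higher response in the sensitive bulk, both sensitive controls were below both tolerant controls. The 52 were selected on a difference that includes the control arrays, so this count is partly set by the selection. The same share over all tested probe sets was not counted. Over those 52 the median log2 difference between the bulks, sensitive minus tolerant, was -2.53 in control and 0.62 under salt. The summed signal of the 16 tested seed storage probe sets was 1083 and 1061 in sensitive control and 1147 and 1060 under salt, against 2936 and 2803 in tolerant control and 1076 and 1035 under salt. Much of the sensitive sums came from a single probe set, GLB. It stood at 696 and 741 in sensitive control and 605 and 580 under salt, and at 772 and 723 in tolerant control and 682 and 625 under salt. In the sensitive bulk 3 of those 16 probe sets rose and 0 fell, and of 26 starch and amylase probe sets 5 rose and 1 fell, with AMY1.4 at 1.91, SS1 at 1.08 and, on 1 of 3 probe sets, SS2, named after its value was seen, at -0.95. After quantile normalization the starch and amylase list had 10 rises and 0 falls, and without salt replicate 1 or 2 it had 3 rises and 0 falls. The part of these seed storage levels in the differences was not tested.

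**Figure D4:**
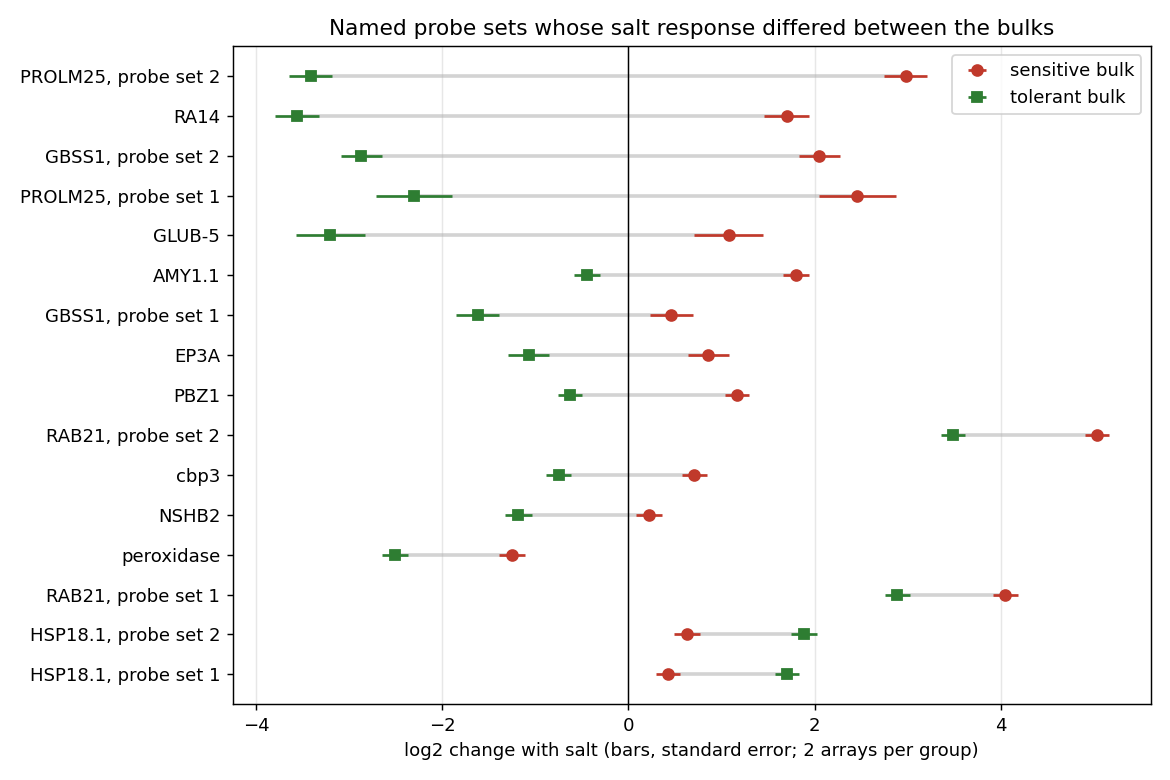
Log2 change with salt in the sensitive bulk (red circles) and in the tolerant bulk (green squares) for the 16 named probe sets whose responses differed, with standard errors (2 arrays per group). PROLM25, RA14, GBSS1, GLUB-5, AMY1.1, EP3A, PBZ1, cbp3 and NSHB2 lie on opposite sides of 0 in the 2 bulks, though not each change was called in both. RAB21 rose more in the sensitive bulk and HSP18.1 more in the tolerant bulk.

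Genes outside the grain reserves differed as well. RAB21 rose in both bulks, from 243 and 245 to 2761 and 2805 in the tolerant bulk, and its rise was larger in the sensitive bulk by 1.54 ± 0.19 (adjusted p = 0.0074). PBZ1 rose in the sensitive bulk and fell in the tolerant bulk by 0.63, a difference of 1.80 (adjusted p = 0.0025). NSHB2, a non-symbiotic haemoglobin gene, fell in the tolerant bulk (-1.18) and had a change of 0.22 in the sensitive bulk, a difference of 1.40. HSP18.1 went the other way: it rose by 1.89 in the tolerant bulk, from 238 and 254 to 954 and 896, and by 0.63 in the sensitive bulk, from 647 and 566 to 983 and 897. On this probe set the arrays of the 2 bulks overlapped under salt, and both sensitive controls lay above both tolerant controls. Without salt replicate 1 or 2 of the sensitive bulk the difference was not called for RAB21 (adjusted p = 0.1 and 0.1) or HSP18.1 (0.19 and 0.28), and for NSHB2 it had an adjusted p of 0.095 and 0.18.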

How the data were processed

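RNA from the sensitive and tolerant bulks, with and without salt, was measured on Affymetrix rice arrays. Deposited were linear intensities per probe set; the submitters' processing notes name GCOS 1.2 as the tool, and its scaling target was not known. The 8 bulk arrays (deposited medians 14.8 to 26.1) were scaled to a common median of 18.4. After 123 control probe sets were left out, 32996 of 57258 with a scaled signal of 18.4 or more on at least 2 arrays were tested. A pseudocount of 4 (the 25th percentile) was added to the scaled signals, which were then taken to log2; no deposited value was on the log2 scale. Every adjusted p in the text is from limma 3.58.1 (R 4.3.3; group means, intensity trend, Benjamini-Hochberg over all probe sets tested, threshold 0.05), which was tested on simulated data. With 2 arrays per group, the number of arrays limits the precision, and how plants were divided between replications is not stated. Replicate numbers did not pair the arrays: deviations of same-numbered arrays correlated at 0 to 0.03 over 6 pairs of groups.

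Of the probe sets, 22436 have 1 gene in the platform annotation, 95 have several and 34727 have none. Symbols are synonyms in RefSeq assembly ASM3414082v1, which name 2457 of the 17905 genes; 109 list members whose names clash were dropped. Named are the 15 largest rises and 15 largest falls without overlap between groups, up to 4 called probe sets per list with the lowest adjusted p, any member of the transport, abscisic acid signalling, calcium, proline, lectin and aquaporin lists, and genes called in the difference. The members, the 49 lists and these rules were chosen with earlier results of these data known. Alternatives covered normalization, filter, pseudocount, trend, arrays in the fit, a replicate block and each array left out. A planned look at promoter sequence was not run.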

Additional observations from a re-analysis of the deposited data

Results flagged for a closer look

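The salt responses of the sensitive and tolerant bulks differed by the test of the difference itself for 17 probe sets given here, 16 named ones and 1 without a gene name that was chosen after its values were seen. Differences are sensitive minus tolerant on the log2 scale, with SE and limma's adjusted p. Storage and starch genes had the largest positive ones. PROLM25 differed by 6.40 ± 0.32 (adjusted p = 9.4e-06) and, on its second probe set, by 4.75 ± 0.58 (0.0073). RA14 differed by 5.25 ± 0.34 (5.2e-05) and the glutelin GLUB-5 by 4.29 ± 0.52 (0.0069). In the sensitive bulk itself GLUB-5 changed by 1.08 and was not called (adjusted p = 0.11). GBSS1 differed by 4.92 ± 0.32 (5.2e-05) and by 2.09 ± 0.33 (0.04), and AMY1.1 by 2.24 ± 0.20 (0.00078). The GBSS1 probe set with the smaller difference changed by 0.46 in the sensitive bulk and was not called there (adjusted p = 0.27).

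Protein-degrading enzymes of seedlings followed, with EP3A, a cysteine endopeptidase, at 1.93 ± 0.31 (adjusted p = 0.048) and cbp3, a serine carboxypeptidase, at 1.46 ± 0.18 (0.0088). The defence gene PBZ1 differed by 1.80 ± 0.19 (0.0025), the haemoglobin NSHB2 by 1.40 ± 0.19 (0.017) and a peroxidase by 1.26 ± 0.20 (0.043). Without sensitive salt replicate 1 or 2 the difference was not called for EP3A (0.29 and 0.26), cbp3 (0.11 and 0.098) or the peroxidase (0.28 and 0.28), and the last was also lost under quantile normalization (0.056). RAB21 differed by 1.54 ± 0.19 (0.0074) and 1.17 ± 0.18 (0.034). HSP18.1 had a larger rise in the tolerant bulk, with differences of -1.27 ± 0.19 (0.025) and -1.26 ± 0.19 (0.034).

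Os.57014.1.S1_at, which has no gene name here, differed by -5.21 ± 0.81 (adjusted p = 0.037). Its signal was 157 and 258 in the sensitive controls, 1.4 and 1.7 in the sensitive salt arrays and 2.0 to 2.5 on all 4 tolerant arrays.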

How the results depend on the processing

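Against 2147 calls for the salt response and 57 for the difference between bulks, the counts moved by over 1.5 times as follows. Without the filter there were 1364 and 36 calls and without the intensity trend 401 and 19. With all 16 arrays in the limma fit there were 0 and 0 (247 and 115 at an unadjusted p under 0.05), where the median residual SD was 0.923 against 0.262. The 4 sensitive arrays alone, fewer samples, gave 381. Leaving out single arrays gave 360 (without sensitive salt replicate 2) to 7235 (without sensitive control replicate 2) calls for the response, with 546 without salt replicate 1 and 1139 to 1317 without a tolerant array. For the difference it gave 25 (without tolerant control replicate 2 or sensitive salt replicate 2) to 281 (without sensitive control replicate 2), with 210 without sensitive control replicate 1 and 26 to 29 without another array. In fits chosen after seeing the data, quantile normalization without sensitive control replicate 2, salt replicate 1 or salt replicate 2 gave 3817, 789 and 672 calls for the response. For the difference it gave 347, 34 and 32, and 167 without control replicate 1. Beyond the fewer samples, the cause was not tested. With a replicate block there were 2478 and 61 calls; it changed the call of 1 of 159 named responses and 1 of 16 named differences. Quantile normalization kept 134 of the 159 and 15 of the 16, and the fits without sensitive salt replicate 1 or 2 kept 69 and 54 of the 159 and 6 and 7 of the 16. Fits without a tolerant array kept 5 to 7 of the 16. No named result reversed in any of the fits run. Without the intensity trend 48 of the 159 and 4 of the 16 stayed called, and without the filter 117 and 11. The 4 sensitive arrays alone kept 60 of the 159, and the fit of all 16 arrays kept 0 of either. Signal near background limits dim genes, and 4 times the pseudocount kept all 159.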

Other observations

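Some of the largest changes were in probe sets with no gene name in the annotation used. They were chosen after their values were seen. Os.47871.1.S1_at went from 0.8 and 7.1 to 206 and 293 in the sensitive bulk, a rise of 5.10 ± 0.40 (limma's adjusted p = 7.5e-05), and rose by 5.39 in the tolerant bulk. OsAffx.26317.1.S2_at went from 62.1 and 33.8 to 1308 and 1388, a rise of 4.76 ± 0.24 (adjusted p = 4.6e-06), and rose by 5.24 in the tolerant bulk. Os.49208.1.S1_at went from 93.2 and 84.3 to 3.4 and 1.5, a change of -3.86 ± 0.36 (adjusted p = 0.00022), against -3.15 in the tolerant bulk. All 3 were called in each fit without 1 sensitive array.

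Among the families not described above, beta-glucosidases of family 1 had 4 rises and 4 falls among 35 probe sets, with a median of 0.02. No beta-glucosidase rise was called without salt replicate 1 or 2. Gibberellin and brassinosteroid genes had 2 falls and 0 rises among 21, neither called without salt replicate 1 or 2. The gibberellin and brassinosteroid falls include that of CPS1, given above with phytoalexin synthesis. Clock and flowering genes had 1 rise and 1 fall among 37.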
